A study of Homo sapiens with 6 samples.

Results

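The heat shock genes described here are the 10 rows of the expression table named HSPA6, HSPA1A, HSPA1B, HSPA8, HSPH1, DNAJB1, HSPB1, HSPD1, HSPE1 and BAG3, out of 28503 named rows. They were chosen by gene name, as chaperone genes known to be driven by heat shock factor 1 (HSF1). All were sought in polyadenylated RNA of the C4-2 line, prostate cancer cells descended from LNCaP, used at passages 10 to 15. Cells received GSK126, an inhibitor of the EZH2 methyltransferase, or astemizole, an antihistamine, each set against vehicle. Other cells received lentivirus carrying 1 of 2 EZH2 shRNAs, set against lentivirus with a scramble shRNA. Doses and times were not found in the labels. There are 6 libraries, 1 per condition or hairpin, and the table has 5 columns of FPKM (fragment counts corrected for transcript length and sequencing depth). The EZH2 knockdown is a single column whose making from the hairpin libraries is not stated. No condition has a replicate value, so every difference below describes these columns only, without a test. Read totals are not given, so the depth behind each value is unknown.

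Heat shock proteins keep other proteins folded. HSP70 proteins bind exposed stretches of a client, J-domain partners such as DNAJB1 load the client and trigger ATP hydrolysis, and HSP110 and BAG-domain proteins release the nucleotide and end the cycle. Small heat shock proteins hold unfolding clients, and the HSPD1 and HSPE1 products form the chaperonin chamber of the mitochondrial matrix, so the set is not purely cytosolic. When unfolded protein accumulates, HSF1 binds heat shock elements, repeats of GAA and TTC units, and raises transcription of these genes. In prostate cells the HSP70 and HSP90 machinery also holds the androgen receptor in its hormone-binding state.

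The promoter sequences are shown because HSF1 is known to drive these genes. Any relation of the promoter letters to the levels was not tested. Sequences were taken from RefSeq on build GRCh38.p14, which is not the authors' build (hg19), and all 10 genes matched, with 13 windows of 300 bases (250 before to 50 after a transcription start). Windows were searched on both strands for the paired units GAANNTTC and TTCNNGAA, and for triples, in which a further TTC or GAA unit follows after 2 more bases. The pairs read the same on both strands, the triples are each other's reverse complement, and every triple contains overlapping pairs. Capitals mark the paired units in these sequences, each written 5′ to 3′ on the gene's strand:
HSPA6, chr1:161524290-161524589, plus strand: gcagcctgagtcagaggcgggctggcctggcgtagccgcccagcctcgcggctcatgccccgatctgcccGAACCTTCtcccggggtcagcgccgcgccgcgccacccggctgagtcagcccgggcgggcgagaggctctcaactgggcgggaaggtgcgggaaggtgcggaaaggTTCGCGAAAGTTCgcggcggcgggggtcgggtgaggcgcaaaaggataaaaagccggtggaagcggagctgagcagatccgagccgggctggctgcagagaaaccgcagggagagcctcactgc
HSPA8, chr11:123062087-123062386, minus strand: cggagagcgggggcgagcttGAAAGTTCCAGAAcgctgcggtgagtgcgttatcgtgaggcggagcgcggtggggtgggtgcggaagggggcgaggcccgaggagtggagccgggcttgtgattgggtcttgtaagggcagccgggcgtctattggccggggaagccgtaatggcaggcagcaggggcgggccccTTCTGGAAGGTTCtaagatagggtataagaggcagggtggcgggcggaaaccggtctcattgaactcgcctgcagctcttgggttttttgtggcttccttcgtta
HSPD1, start 2, chr2:197499791-197500090, minus strand: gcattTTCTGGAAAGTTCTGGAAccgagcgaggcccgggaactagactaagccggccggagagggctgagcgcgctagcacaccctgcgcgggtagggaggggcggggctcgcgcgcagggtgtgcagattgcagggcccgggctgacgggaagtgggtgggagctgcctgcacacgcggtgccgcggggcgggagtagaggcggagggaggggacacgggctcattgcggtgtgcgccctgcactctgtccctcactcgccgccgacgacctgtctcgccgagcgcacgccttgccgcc
DNAJB1, start 2, chr19:14518348-14518647, minus strand: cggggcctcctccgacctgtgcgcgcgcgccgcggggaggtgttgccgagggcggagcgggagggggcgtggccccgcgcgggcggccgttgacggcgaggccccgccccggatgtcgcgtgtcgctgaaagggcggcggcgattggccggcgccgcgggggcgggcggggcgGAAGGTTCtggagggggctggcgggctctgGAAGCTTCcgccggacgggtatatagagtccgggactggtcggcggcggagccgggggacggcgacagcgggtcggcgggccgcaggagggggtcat
HSPB1, chr7:76302423-76302722, plus strand: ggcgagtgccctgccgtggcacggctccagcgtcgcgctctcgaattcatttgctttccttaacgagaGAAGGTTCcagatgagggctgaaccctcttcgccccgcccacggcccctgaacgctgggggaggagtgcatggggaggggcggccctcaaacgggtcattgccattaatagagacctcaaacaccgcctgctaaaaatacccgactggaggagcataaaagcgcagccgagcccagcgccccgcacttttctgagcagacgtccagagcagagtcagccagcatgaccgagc
HSPA1A, chr6:31815293-31815592, plus strand: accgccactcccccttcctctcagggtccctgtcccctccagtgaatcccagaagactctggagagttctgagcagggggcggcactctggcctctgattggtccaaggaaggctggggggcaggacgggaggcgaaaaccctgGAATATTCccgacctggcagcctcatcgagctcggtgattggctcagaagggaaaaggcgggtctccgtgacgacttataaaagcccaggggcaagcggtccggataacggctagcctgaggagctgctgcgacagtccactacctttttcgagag
HSPA1B, chr6:31827488-31827787, plus strand: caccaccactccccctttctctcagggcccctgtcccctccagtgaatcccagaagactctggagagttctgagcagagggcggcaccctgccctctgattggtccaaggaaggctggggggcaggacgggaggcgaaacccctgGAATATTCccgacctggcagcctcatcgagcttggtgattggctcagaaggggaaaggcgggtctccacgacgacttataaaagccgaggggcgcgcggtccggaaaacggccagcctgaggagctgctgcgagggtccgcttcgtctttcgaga

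HSPA6 holds 1 triple, TTCGCGAAAGTTC, which begins 74 bases before the start, and a separate pair 180 bases before it. HSPA8 holds 2 triples, GAAAGTTCCAGAA at 230 bases and TTCTGGAAGGTTC at 55 bases before the start. The second start of HSPD1 has 2 overlapping triples, the first of them 245 bases before the start. DNAJB1 has pairs at 77 and 47 bases before its second start and 1 pair just after its start 3, HSPB1 1 pair at 182 bases, and HSPA1A and HSPA1B the same pair, GAATATTC, at 106 and 105 bases. The windows of HSPH1, HSPE1 and BAG3, the first start of HSPD1 and the first start of DNAJB1 held neither letter pattern. The HSPE1 window (chr2:197500129-197500428) does not reach the neighbouring window of the second HSPD1 start, which holds the HSPD1 triples. Letters outside a gene's own window were not counted for it. Over all 35116 windows of this length in the RefSeq table, 13.5% held a pair and 0.490% a triple. A match describes letters only, and no binding was measured.

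**Figure D1:**
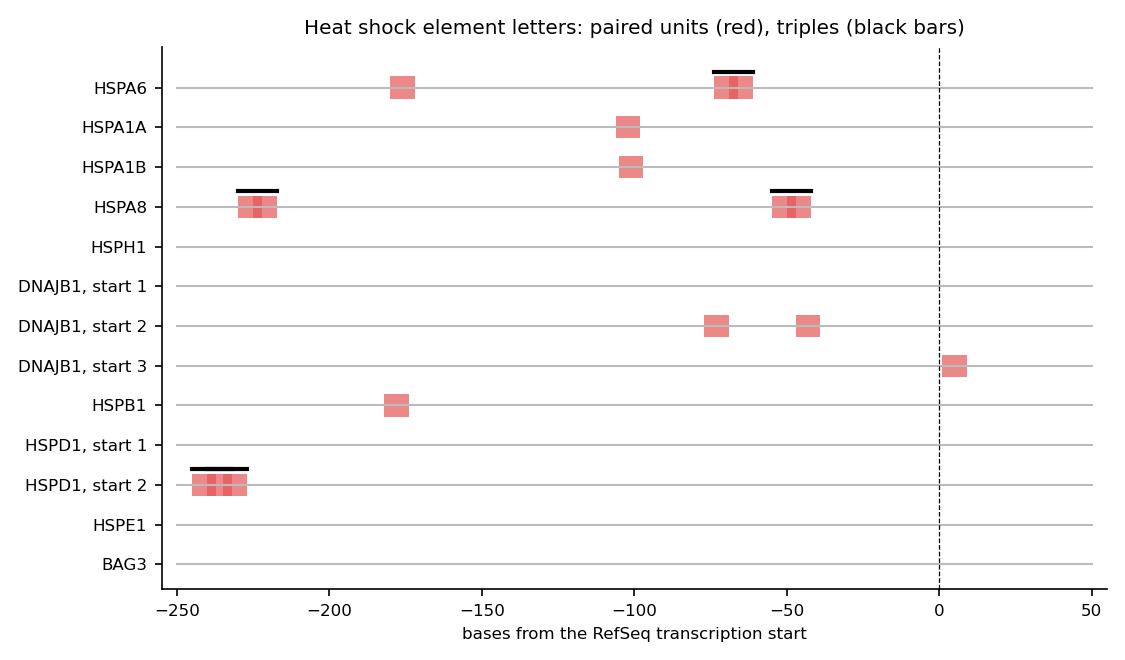
Positions of the paired units (red boxes, darker where they overlap) and triples (black bars) in the 13 RefSeq windows, in bases from the transcription start (dashed line). Triples appear for HSPA6, HSPA8 and the second start of HSPD1.

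Prostate markers were present, and the columns differed in scale. All 9 prostate epithelial markers passed 1 FPKM, and KLK3, which encodes prostate-specific antigen, stood at 1230 FPKM or more in every column. EZH2 stood at 3.35 FPKM in the knockdown column and 24.6 in scramble shRNA, and at 17.5 with GSK126, 9.48 with astemizole and 26.5 with vehicle. The 11 liver markers summed to 186 FPKM with GSK126, 5.70 with astemizole, 21.6 with vehicle, 3.28 in the knockdown and 2.09 in scramble shRNA. These levels were highest with GSK126 and next highest with vehicle. Their part in the results was not tested, and fewer cells of a type and less RNA per cell cannot be told apart in bulk RNA. Rescaling each column to TPM (the same column total for every column) shifted log2 ratios over all genes by a median of 0.20 for GSK126 over vehicle, 0.04 for astemizole over vehicle and -0.03 for knockdown over scramble shRNA.

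Of the 10 heat shock genes, 8 passed the filter of 1 FPKM in at least 1 column. Of these, 7 exceeded it in all 5 columns, and HSPA6 passed only through the astemizole column, so that it had to differ. Ratios are log2 of (FPKM + 1) over (FPKM + 1), a scale that understates differences of low genes, and 2-fold (a log2 ratio of 1) is the size counted.

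**Figure D2:**
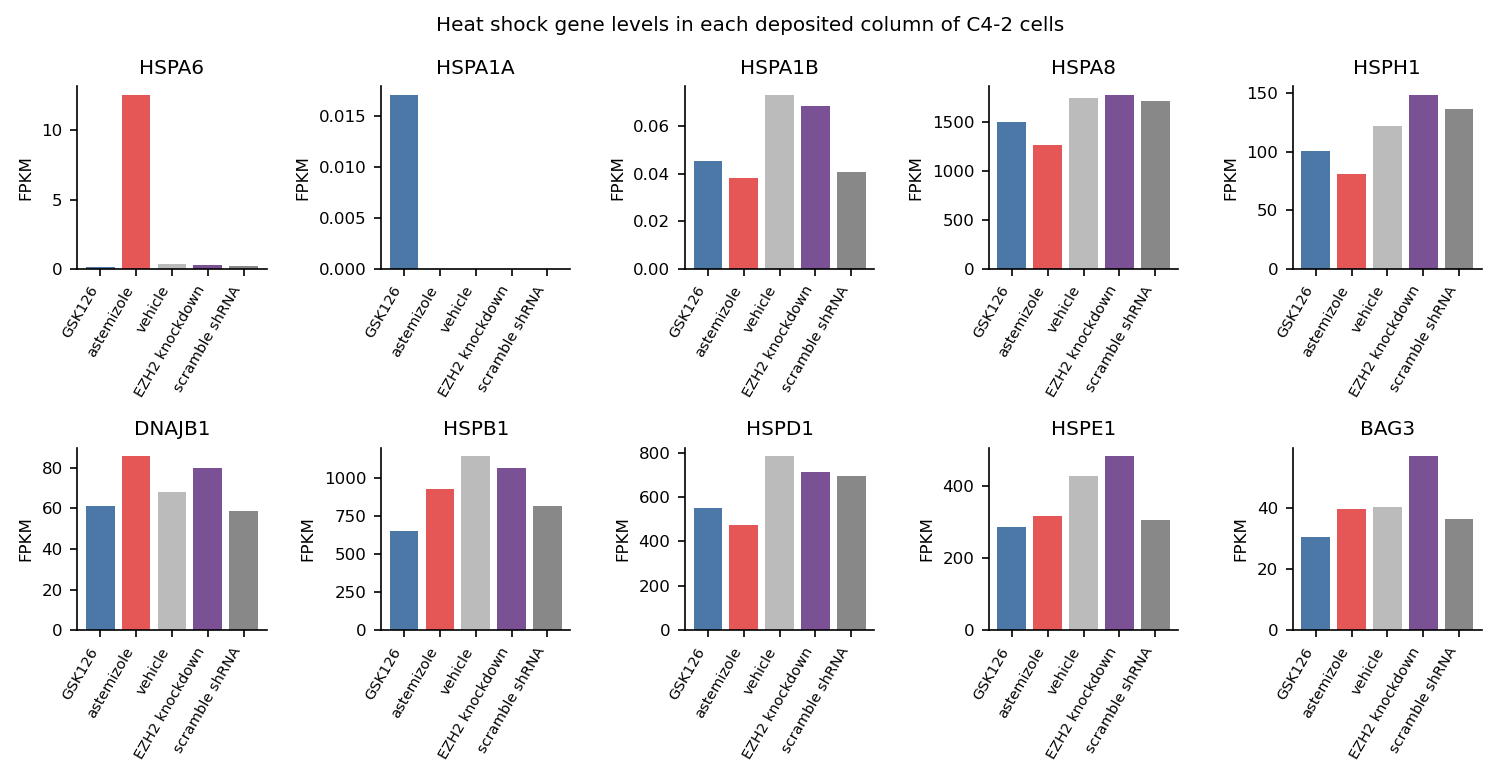
FPKM of each heat shock gene (1 bar per deposited column, each axis from 0 with its own scale). HSPA6 stands at 12.6 FPKM with astemizole and under 1 FPKM in every other column, while HSPA1A and HSPA1B are near 0 throughout.

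The inducible HSP70 genes come first. HSPA6 encodes HSP70B′, a strictly stress-induced HSP70 that unstressed human cells hardly express. It stood at 0.171 FPKM with GSK126, 12.6 with astemizole and 0.327 with vehicle, and at 0.273 in the knockdown against 0.238 in scramble shRNA. Astemizole was the single high column, and the other 4 lay below 0.35 FPKM. The astemizole level was 38.4 times the vehicle level, a log2 ratio of 3.35 with a pseudocount of 1 FPKM and 4.89 with 0.1, and it ranked 5th of 12928 genes kept. Against scramble shRNA the log2 ratio was 3.45. The size of the fold rests on a vehicle level under 1 FPKM. In the same comparison 3.53% of genes were at least 2-fold higher and 5.49% at least 2-fold lower.

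HSPA1A and HSPA1B encode the major inducible HSP70 protein from neighbouring near-identical copies. HSPA1A was listed at 0.0171 FPKM with GSK126 and at 0 in the other 4 columns. HSPA1B lay at 0.0453 FPKM with GSK126, 0.0384 with astemizole and 0.0734 with vehicle, and at 0.0687 in the knockdown against 0.0409 in scramble shRNA. No fold is read from such values. In the GENCODE 29 transcripts, 72.6% of the 50-base windows of HSPA1A also occur in HSPA1B. Windows shared with any other gene made up 27.2% for HSPE1, 24.8% for HSPD1, 15.4% for HSPA8, 11.4% for HSPB1 and 2.57% for DNAJB1. HSPH1 and BAG3 shared none. The part of shared reads in the low values of HSPA1A and HSPA1B was not tested, so the 2 rows do not show whether the major inducible HSP70 differed. HSPA6 shares 45.5% of its windows with the pseudogene HSPA7, which itself was listed at 0.166 FPKM with astemizole and at 0 with GSK126 and vehicle.

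HSPA8 encodes HSC70, the constitutive cytosolic HSP70. Its level was 1499 FPKM with GSK126, 1265 with astemizole and 1737 with vehicle, and 1774 in the knockdown against 1710.2 in scramble shRNA. The lowest of these was astemizole, the column where HSPA6 was highest. Log2 ratios were -0.21 for GSK126, -0.46 for astemizole and 0.05 for the knockdown. On the FPKM scale astemizole was lower than vehicle by 472 for HSPA8 and higher by 12.2 for HSPA6, and HSPA6 amounted to 0.993% of HSPA8 with astemizole and 0.0188% with vehicle.

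**Figure D3:**
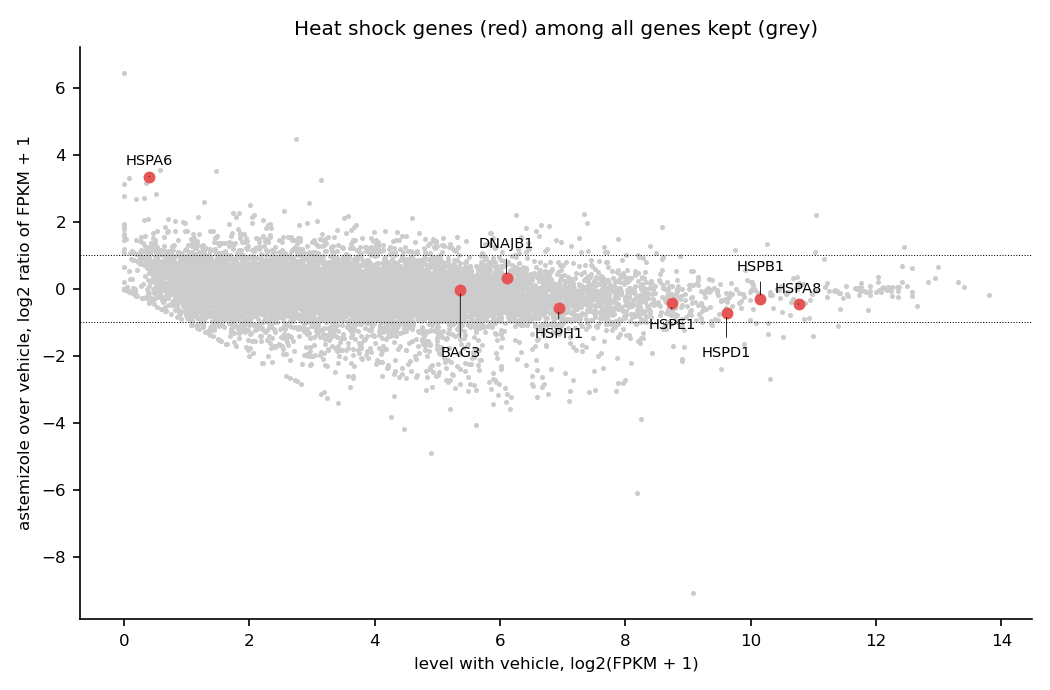
Level with vehicle, as log2(FPKM + 1), against the log2 ratio of astemizole over vehicle for 12928 genes (grey) and the 8 heat shock genes past the filter (red); dotted lines mark 2-fold. HSPA6, at 3.35, is the one red point outside those lines.

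The partners of HSP70 differed from each other with astemizole. DNAJB1 encodes an HSP40 protein that delivers clients to HSP70, and stood at 61.0 FPKM with GSK126, 85.6 with astemizole and 67.9 with vehicle. Its knockdown level was 79.6 against 58.5 in scramble shRNA. HSPH1 encodes an HSP110 exchange factor of HSP70 and stood at 101 FPKM with GSK126, 81.4 with astemizole and 122 with vehicle, with 149 in the knockdown and 137 in scramble shRNA. So astemizole gave the highest DNAJB1 level of the 5 columns and the lowest HSPH1 level, with log2 ratios of 0.33 and -0.57. BAG3 encodes a BAG-domain cochaperone that links HSP70 and small heat shock proteins to autophagy. It stood at 30.4 FPKM with GSK126, 39.5 with astemizole and 40.3 with vehicle, and at 56.9 in the knockdown against 36.2 in scramble shRNA, which made the knockdown its highest column.

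The small heat shock gene HSPB1, which encodes HSP27, stood at 653 FPKM with GSK126, 923 with astemizole and 1139.5 with vehicle. In the knockdown it was 1063, against 816 in scramble shRNA. GSK126 was its lowest column, at a log2 ratio of -0.80, and 2.36% of genes had a lower ratio there. The control columns themselves differed by -0.48 (scramble shRNA over vehicle), so against scramble shRNA the GSK126 ratio was -0.32.

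The mitochondrial chaperonin genes lie head to head on chromosome 2. HSPD1, which encodes HSP60, stood at 550.3 FPKM with GSK126, 473 with astemizole and 783 with vehicle, with 712 in the knockdown and 694 in scramble shRNA. HSPE1, which encodes its HSP10 lid, stood at 287 FPKM with GSK126, 316 with astemizole and 427 with vehicle, with 483 in the knockdown and 306 in scramble shRNA. Both were below vehicle with either compound, whereas in the knockdown HSPE1 had a log2 ratio of 0.66 and HSPD1 one of 0.04. For HSPE1 this contrast depends on the control column. With the compounds set against scramble shRNA and the knockdown against vehicle, HSPE1 was at -0.09 (GSK126), 0.05 (astemizole) and 0.18 (knockdown). HSPD1 was then at -0.33, -0.55 and -0.14. HSPE1 shares 16.0% of its 50-base windows with the readthrough gene HSPE1-MOB4, which stayed at 0.500 FPKM or less in every column.

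**Figure D4:**
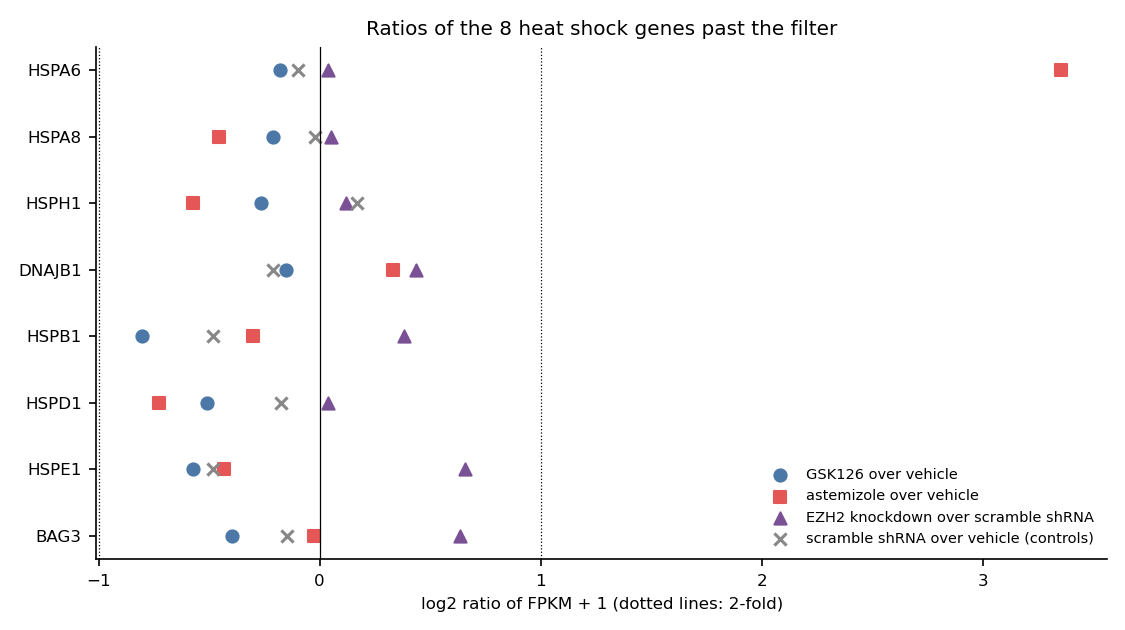
Log2 ratios of FPKM + 1 for the 8 heat shock genes past the filter: GSK126 and astemizole over vehicle, EZH2 knockdown over scramble shRNA, and the control columns against each other (crosses). All GSK126 points lie below 0 and all knockdown points above 0, within 2-fold. HSPA6 was below 1 FPKM in every column but astemizole, so its direction in these 2 comparisons is not read. Of all genes kept, 54.3% lie below 0 with GSK126 and 52.7% above 0 in the knockdown.

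The GSK126 column bears on inhibition of EZH2 catalysis. All 8 heat shock genes past the filter were lower with GSK126, by log2 ratios from -0.80 for HSPB1 to -0.15 for DNAJB1. HSPA6 is counted among them, but it lay below 1 FPKM in both columns, so its direction is not read. None of the 8 genes reached 2-fold in either direction, beside 1.05% of genes higher and 0.951% lower by that much over the whole table. Their median was -0.33 (-0.40 without HSPA6), beside -0.04 over all genes kept, of which 54.3% were below 0. After TPM rescaling the median was -0.18 beside 0.15 over all genes, and DNAJB1 turned to 0.06 and HSPA8 to 0.00. Against scramble shRNA DNAJB1 was likewise at 0.06. On the FPKM scale the ratio was larger in size than that between the control columns for 7 of the 8 genes, the exception being DNAJB1. After TPM rescaling, which shifted the control comparison by a median of 0.25 over all genes, it was larger for 6, the exceptions being HSPA8 and HSPH1. The same count was not made over all genes, and both ratios use the vehicle column, so these counts set nothing apart about the heat shock genes.

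The astemizole column bears on a compound studied for disrupting the contact of EZH2 with EED, its partner in the same methyltransferase complex. Of the 8 genes, HSPA6 was at least 2-fold higher and none at least 2-fold lower, beside 3.53% and 5.49% of all genes. HSPA6 passed the filter only through this column. DNAJB1 was above vehicle by less than 2-fold, BAG3 was level with it at -0.03 (0.01 after TPM rescaling), and HSPD1 at -0.73, HSPH1 at -0.57, HSPA8 at -0.46, HSPE1 at -0.43 and HSPB1 at -0.30 were below it. The median was -0.37 beside -0.06 over all genes. With scramble shRNA as control HSPB1 turned to 0.18, HSPE1 to 0.05 and BAG3 to 0.12, and the median to 0.09, while HSPD1, HSPH1 and HSPA8 were at -0.55, -0.74 and -0.43. Ratios of HSPB1, HSPE1 and BAG3 were no larger than those between the control columns on the FPKM scale, and after TPM rescaling this held for BAG3 but not for HSPB1 and HSPE1. GSK126, astemizole and the control comparison share the vehicle column, and the share of all genes beyond the control distance was not counted.

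The knockdown column bears on loss of the EZH2 transcript itself. All 8 genes were above scramble shRNA, led by HSPE1 at 0.66, BAG3 at 0.64, DNAJB1 at 0.44 and HSPB1 at 0.38. The other 4, HSPH1, HSPA8, HSPA6 and HSPD1, lay between 0.04 and 0.12. HSPA6 was below 1 FPKM in both columns, so its direction is not read. None of the 8 genes reached 2-fold, beside 1.94% of genes higher and 5.11% lower by that much over the whole table. The median was 0.25 (0.38 without HSPA6), beside 0.03 over all genes kept, of which 52.7% were above 0. With vehicle as control the median was 0.10, and HSPA6 was at -0.06, HSPB1 at -0.10 and HSPD1 at -0.14, while BAG3 was at 0.49, DNAJB1 at 0.23 and HSPE1 at 0.18. Ratios of HSPA6, HSPH1, HSPB1 and HSPD1 were no larger than those between the control columns on the FPKM scale, and after TPM rescaling this held for HSPA6, HSPA8, HSPH1 and HSPD1. The control comparison shares the scramble shRNA column with the knockdown ratio, and the same count was not made over all genes.

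Other chaperone genes were examined as 9 lists, with some genes in more than 1 list. Together they hold 87 genes besides the 10, of which 79 passed the filter. With astemizole 3 of the 79 were higher and 6 lower by 2-fold or more, where 3.53% of all genes were higher and 5.49% lower, and the median was -0.43 beside -0.06 over all genes. With GSK126 none passed 2-fold, where 1.05% of all genes were higher and 0.951% lower, and the median was -0.23 beside -0.04. In the knockdown 1 gene was higher and 1 lower, where 1.94% of all genes were higher and 5.11% lower. The median was 0.01 beside 0.03 over all genes, and turned to -0.02 after TPM rescaling.

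No heat shock factor gene reached 2-fold. HSF1, the regulator named above, stood at 47.2 FPKM with GSK126, 56.4 with astemizole and 51.8 with vehicle, with 38.1 in the knockdown and 45.6 in scramble shRNA. HSF2, a related factor, had log2 ratios of -0.29, -0.60 and -0.03 in the 3 comparisons. IER5, an HSF1 cofactor, stood at 4.37 FPKM with GSK126, 6.08 with astemizole and 8.80 with vehicle, and at 3.36 in the knockdown against 5.18 in scramble shRNA. None of the 5 genes of this list reached 2-fold against its matched control, although IER5 in the knockdown was at -1.17 with vehicle as control. Of all genes, 0.951% to 5.49% reached 2-fold against the matched control, by comparison and direction.

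With astemizole 13 of 14 HSP90 and cochaperone genes and all 8 genes of the cytosolic chaperonin were below vehicle, most of them by less than 2-fold. Of all genes kept, 55.3% were below vehicle with astemizole. HSP90AA1, the inducible HSP90 gene, stood at 918 FPKM with astemizole and 1573 with vehicle (-0.78), and the constitutive HSP90AB1 at 902 and 1454 (-0.69). Of the 14 genes, 3 were lower by 2-fold or more and none higher, beside 5.49% lower and 3.53% higher over all genes, and the median was -0.80. These were the ER paralogue HSP90B1 at -1.18, the p23 cochaperone gene PTGES3 at -1.05 and the mitochondrial paralogue TRAP1 at -1.003. The CCT chaperonin genes, whose product folds actin and tubulin, had a median of -0.87. TCP1 at -1.06, CCT5 at -1.03 and CCT6A at -1.003, 3 of the 8, were at least 2-fold lower, against the same 5.49%. With scramble shRNA as control these 6 genes lay between -0.76 and -0.87, short of 2-fold. With GSK126 all 14 and all 8 genes were below vehicle, by less than 2-fold, with medians of -0.40 and -0.36 (-0.18 and -0.15 after TPM rescaling). Of all genes kept, 54.3% were below vehicle with GSK126, and 0.951% at least 2-fold lower. In the knockdown the medians were -0.07 and 0.03, the second just below 0 after TPM rescaling.

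Genes at the other end with astemizole encode other small heat shock proteins and a heme enzyme. Of 9 other small heat shock genes 3 passed the filter. HSPB8, whose product pairs with BAG3, stood at 0.427 FPKM with GSK126, 4.603 with astemizole and 0.315 with vehicle (2.09 for astemizole), and at 1.17 in the knockdown against 0.251 in scramble shRNA. CRYAB, which encodes alphaB-crystallin, stood at 4.23 FPKM with GSK126, 13.9 with astemizole and 4.04 with vehicle (1.56 for astemizole). In the knockdown CRYAB was at 2.29 against 1.44 in scramble shRNA, a ratio of 0.43 that turned to -0.62 with vehicle as control, and the control columns differed by -1.05. The third, HSPB11, which encodes an intraflagellar transport protein, was at -0.69 with astemizole. HMOX1, which encodes the heme-degrading enzyme heme oxygenase 1 and responds to HSF1 and other stress factors, stood at 14.4 FPKM with GSK126, 59.5 with astemizole and 17.1 with vehicle. Like HSPA6, HSPB8 passed the filter with vehicle below 1 FPKM, though the knockdown column also lay above 1.

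Among 19 other genes known to be induced by HSF1, which overlap the lists above, 2 were at least 2-fold higher with astemizole (HMOX1 and CRYAB) and 1 lower (TCP1). Over all genes 3.53% were higher and 5.49% lower by that much. The median of the 19 was -0.63, beside -0.06 over all genes. The J-domain gene DNAJB4 was at 0.32 and the stress-induced ZFAND2A at 0.33, while CACYBP was at -0.93 and DNAJA1 at -0.53.

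Among J-domain genes and exchange factors the largest ratios were in the knockdown. DNAJB4 stood at 20.0 FPKM in the knockdown and 6.57 in scramble shRNA (1.47), DNAJB6 at 125 and 70.4 (0.82) and DNAJB2 at 44.3 and 27.3 (0.68). DNAJC3, which encodes an ER cochaperone of BiP, was at 5.04 in the knockdown and 19.2 in scramble shRNA (-1.74). So 1 of 15 measured J-domain genes was at least 2-fold higher and 1 at least 2-fold lower, beside 1.94% and 5.11% of all genes. With astemizole none was, beside 3.53% and 5.49%, the highest being DNAJB9 at 0.86 and DNAJB2 at 0.70. With scramble shRNA as control these 2 astemizole ratios were 1.10 and 1.09, past 2-fold. BAG2, a further exchange factor of HSP70, was at 71.3 FPKM in the knockdown and 37.8 in scramble shRNA (0.90), and ST13, the HSP70-interacting protein gene, at 193 and 129 (0.58). None of the 12 HSP110 and exchange factor genes reached 2-fold in any of the 3 comparisons, beside 0.951% to 5.49% of all genes.

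The remaining lists hold other HSP70 genes and mitochondrial chaperones. HSPA2, a testis-enriched HSP70 gene, stood at 0.539 FPKM with GSK126, 0.180 with astemizole and 0.870 with vehicle, and at 0.117 in the knockdown against 1.02 in scramble shRNA, the one column that passed it through the filter. Its log2 ratios were -0.66 with astemizole and -0.86 in the knockdown, the second at -1.12, past 2-fold, after TPM rescaling. HSPA5, which encodes the ER chaperone BiP, was at -0.71 with astemizole, 0.10 with GSK126 and -0.41 in the knockdown. HSPA9, the HSP70 of the mitochondrial matrix, stood at 98.6 FPKM with GSK126, 120.1 with astemizole and 120.5 with vehicle, and at 174 in the knockdown against 123 in scramble shRNA. On the FPKM scale none of the 8 measured other HSP70 genes reached 2-fold in these comparisons, beside 0.951% to 5.49% of all genes, by comparison and direction. Among 11 mitochondrial chaperone and protease genes the astemizole median was -0.44, beside -0.06 over all genes. TRAP1 alone was at least 2-fold lower with astemizole, beside 5.49% of all genes. The GSK126 and knockdown medians were -0.29 and 0.04, beside -0.04 and 0.03 over all genes.

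**Figure D5:**
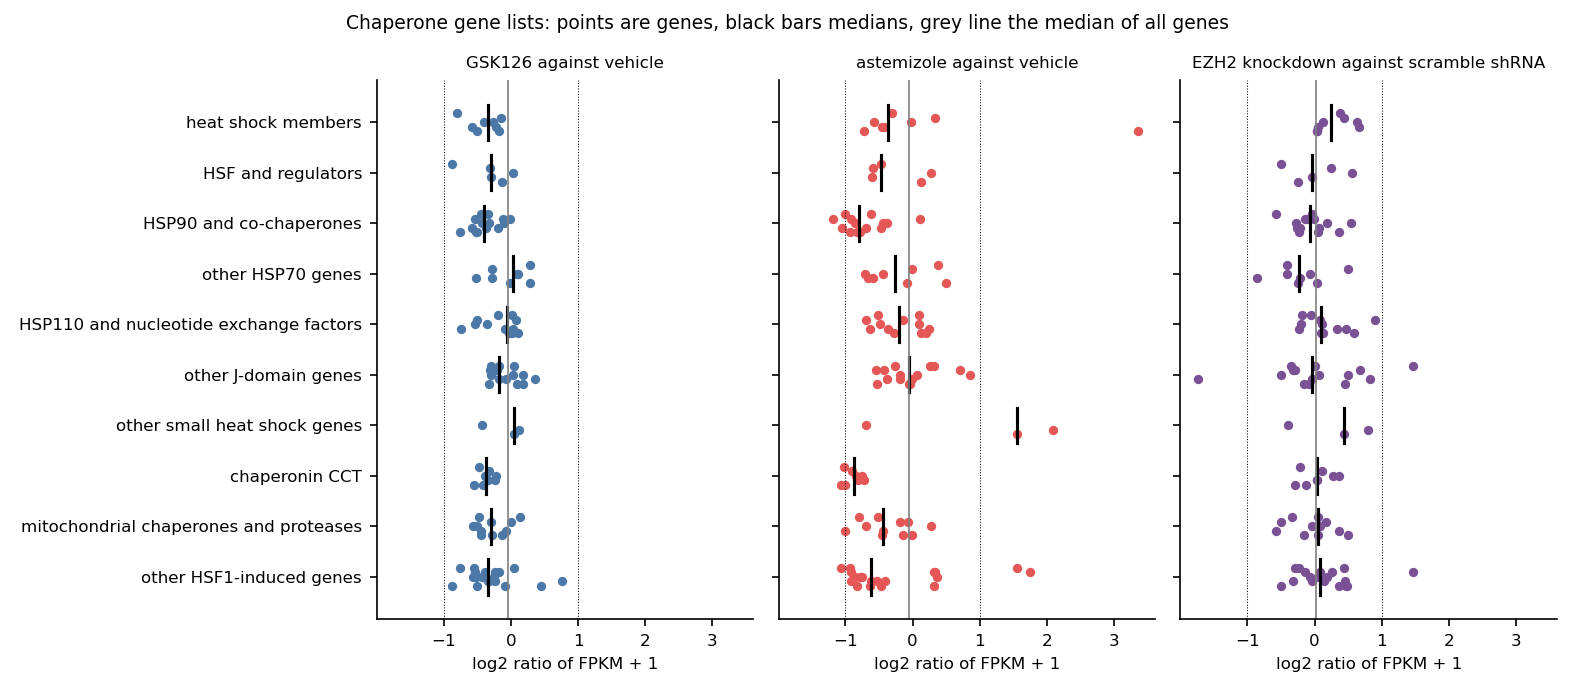
Log2 ratios of FPKM + 1 for the measured genes of the 10 heat shock genes and of 9 chaperone lists in 3 comparisons (points), with list medians (black) and the median of all genes kept (grey line). With astemizole the CCT and HSP90 lists lie left of the grey line, at medians of -0.87 and -0.80, while HSPA6, HSPB8, CRYAB and HMOX1 lie beyond 2-fold on the right.

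The compounds can also be set against each other. For astemizole over GSK126 HSPA6 was at 3.53, HSPB1 and DNAJB1 at 0.50 and 0.48, and HSPH1 at -0.31, with 2.19% of all genes at least 2-fold higher and 3.28% lower. HSPA6 was the one heat shock gene past 2-fold. The median of the 8 genes was 0.26, and 0.14 without HSPA6.

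Genes with a pattern like that of HSPA6 were sought over the 3 log2 ratios to the matched controls, by Euclidean distance among the 9662 genes that reached 5 FPKM in any column. Among the nearest were LCN2, DIO3, S100P and PRSS1, at distances of 0.25, 0.54, 0.81 and 0.89. LCN2, a gene for a secreted siderophore-binding protein, stood at 16.4 FPKM with astemizole and 0.492 with vehicle, and was listed at 0 in the knockdown and scramble shRNA. DIO3, a thyroid hormone deiodinase gene, stood at 9.58 and 0.0638, and S100P, which encodes a calcium-binding protein, at 83.9 and 7.85. Like HSPA6, LCN2, DIO3 and PRSS1 reached 5 FPKM only with astemizole. With a pseudocount of 1 FPKM, genes near 0 elsewhere have small GSK126 and knockdown ratios by construction, so much of their likeness was fixed in advance. S100P passed 5 FPKM in every column and had a knockdown ratio of -0.76. None of these 4 is in the chaperone lists.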

How the data were processed

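The labels describe 6 polyadenylated RNA libraries of C4-2 cells. The deposited values are FPKM, which the labels name as the unit of the authors' table. Per the submitters' processing notes, TopHat2 and Cuffdiff were used, with build hg19. For the annotation, the normalization options and the merging of hairpin libraries, nothing is stated in the labels (not given in the sources used here). With no read totals, the number of columns limits the precision.

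From 28503 rows, 27 names turned into dates and 1713 short non-coding RNAs were left out. Genes reaching 1 FPKM in any column were kept (12928) and compared as log2 ratios with a pseudocount of 1 FPKM (Python 3.11.15, pandas 2.3.3). No test was possible with 1 value per condition. Named are the 10 genes, from each list the 4 genes (or fewer) farthest from 0 in a comparison, HSF1, HSF2, HSP90AA1, HSP90AB1, and the 5 genes nearest to HSPA6, of which 1 is not reported here. ZFAND2A was named after its value was seen. The genes and lists were chosen with earlier results of these data known. Alternatives were a pseudocount of 0.1 FPKM, TPM rescaling, no filter, the other control column, summed HSPA1A and HSPA1B, and leaving out HSPA6.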

Additional observations from a re-analysis of the deposited data

How the results depend on the processing

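No replicate exists, so no setting below is a check on error, and depth is unknown. No paired analysis was possible because each condition has 1 column. Median log2 ratios of the heat shock genes past the filter were, for GSK126 (-0.33), -0.46 with a pseudocount of 0.1 FPKM, -0.18 after TPM rescaling and -0.22 against scramble shRNA. For astemizole (-0.37) the median was -0.18 without a filter and reversed to 0.085 against scramble shRNA. For the knockdown (0.25) it was 0.085 without a filter, 0.10 against vehicle and 0.38 without HSPA6. For astemizole over GSK126 (0.26) it was 0.087 after TPM rescaling, 0.066 without a filter and 0.14 without HSPA6. Medians without a filter add only HSPA1A and HSPA1B, whose levels are near 0 and whose ratios are therefore near 0. Scramble shRNA over vehicle (-0.16) reversed to 0.072 after TPM rescaling. Leaving out HSPA6, an alternative chosen after seeing the data (as was the TPM comparison with the control columns), left 0 genes at least 2-fold higher with astemizole. Counts of genes past 2-fold were 136 up and 123 down with GSK126 (52.5% higher), 370 and 236 with the smaller pseudocount, 300 and 73 after TPM rescaling (80.4% higher), and 197 and 51 against scramble shRNA (79.4% higher). The TPM counts are over the 13520 genes that reached 1 TPM in any column, the others over 12928. With astemizole 456 were higher and 710 lower (39.1% higher), 750 and 1021 with the smaller pseudocount, and 591 and 504 against scramble shRNA (54.0% higher). In the knockdown 251 were higher and 660 lower, and 488 and 1003 with the smaller pseudocount. Summing HSPA1A and HSPA1B could not move the medians or counts of the heat shock genes. The sum stays below 1 FPKM in every column, so the filter removes it. Apart from what the settings themselves leave out, the cause was not tested.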

Other observations

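Ratios between 2 genes within a column do not depend on how columns are scaled. HSPD1 stood at 1.92 times the FPKM of its partner HSPE1 with GSK126, 1.496 times with astemizole and 1.83 times with vehicle. In the knockdown this ratio was 1.47, and in scramble shRNA 2.27. DNAJB1 over HSPA8 was 0.0407 with GSK126, 0.0677 with astemizole and 0.0391 with vehicle, and 0.0449 in the knockdown against 0.0342 in scramble shRNA, so astemizole was the highest column. BAG3 over BAG1, exchange factors linked to autophagy and to the proteasome, was 1.19 with GSK126, 1.13 with astemizole and 1.23 with vehicle, and 1.82 in the knockdown against 1.25 in scramble shRNA. HSP90AA1 over HSP90AB1 was 0.971 with GSK126, 1.02 with astemizole and 1.08 with vehicle, and 1.26 in the knockdown against 1.04 in scramble shRNA. These pairs were chosen after their values were seen.

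The 10 heat shock genes made up 0.465% of the summed FPKM with GSK126, 0.414% with astemizole and 0.543% with vehicle. In the knockdown they made up 0.639%, against 0.569% in scramble shRNA. The sum leaves out the date-named and short non-coding rows. HSPA8, HSPB1 and HSPD1 had the highest levels in every column, so the share mostly reflects them and says little about HSPA6 or DNAJB1.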
